A study of Mus musculus with 8 samples.

Results

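The insulin-like growth factor (IGF) system is the group of 10 genes that encode the ligands Igf1 and Igf2, the receptors Igf1r and Igf2r, and the secreted binding proteins Igfbp2, Igfbp3, Igfbp4, Igfbp5, Igfbp6 and Igfbp7. The members were picked by symbol as a family of related genes, with earlier results of these data known, and all 10 were found among the 22274 genes of the table. All 10 passed the filter on low counts, as did 13533 genes in all. Primary mouse cardiac fibroblasts had been given a virus for IRF7, an interferon regulatory transcription factor, or a control virus, and RNA-seq was run on 4 libraries of each group. Those of the control group are labelled GFP and those of the other group OEIRF7. Every culture, control or not, was treated with TGF-β, the cytokine that turns fibroblasts into contractile myofibroblasts, so a comparison with resting fibroblasts was not made here. The text deposited with the libraries calls the vector an adeno-associated virus and the study's methods an adenovirus. The labels give no strain, age or sex of the animals, and do not say whether libraries of a group came from separate cultures. The p-values therefore measure the spread between these libraries, which may be technical.

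IGF1 and IGF2 are secreted peptides that signal growth and survival through the receptor tyrosine kinase IGF1R, which is related to the insulin receptor. IGF2R is not a signalling kinase: it carries IGF2 to lysosomes for breakdown and also sorts lysosomal enzymes. The binding proteins hold IGFs in the extracellular fluid and on the matrix, and proteases that cut them set the IGFs free. In the heart, fibroblasts are a known source of IGF1. IGFBP7 binds IGFs weakly and is known as an abundant product of fibroblasts and endothelial cells.

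As a check of the labels, the mouse gene Irf7 was counted at 107, 147, 92.0 and 126 CPM (read counts scaled to a common library total) in the GFP libraries and at 14.9, 14.5, 14.9 and 16.4 CPM in the libraries labelled OEIRF7. It was thus lower in the latter, by 2.96 on the log2 scale (edgeR's quasi-likelihood test, Benjamini-Hochberg adjusted p = 7.7e-11). The study's reagent list names a human IRF7 construct for the adenovirus and a mouse Irf7 construct for the adeno-associated virus. The table holds mouse genes, so a human transgene was not measured here. The check thus did not show whether the labels were as intended. The direction of every comparison given here is that of the libraries labelled OEIRF7 against those labelled GFP. Each direction would reverse if the labels were exchanged. Phrf1, which overlaps Irf7 on the opposite strand, had a log2 fold change of -0.09 (adjusted p = 0.058 by the same test), and was called lower without GFP replicate 2 (-0.11, adjusted p = 0.021) and without OEIRF7 replicate 4 (-0.10, adjusted p = 0.046). Total counts ranged from 24454801 to 28658826 per library.

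Most of the IGF system was lower in the libraries labelled OEIRF7. Of the 10 genes, 7 were called lower at an adjusted p of 0.05, where 29.9% of all tested genes were called lower. A single member, Igfbp6, was called higher, where 29% of all tested genes were. Igf2 and Igfbp5 were not called. In the 7 lower genes no OEIRF7 library reached the lowest GFP library, a pattern seen in 27% of all tested genes, and in Igfbp6 every OEIRF7 library was above every GFP library, as in 26.8% of all tested genes. In the fitted counts Igf1 and Igfbp4 fell by more than 1 on the log2 scale, and no member rose that far. That size was called lower in 3.89% and called higher in 4.66% of tested genes. The 95% interval of Igfbp4, -1.25 to -0.94, reached smaller sizes too. On FPKM (fragment counts scaled for gene length and library depth) neither fall passed 1. There the log2 ratios of the means were -0.75 for Igf1 and -0.99 for Igfbp4. The median log2 fold change of the 10 members was -0.42, against 0.002 over all tested genes. Together the members took 0.234% to 0.243% of all counts in the GFP libraries and 0.190% to 0.194% in the OEIRF7 libraries. In these bulk libraries, fewer cells that use a gene and less of its RNA per cell cannot be told apart.

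**Figure D1:**
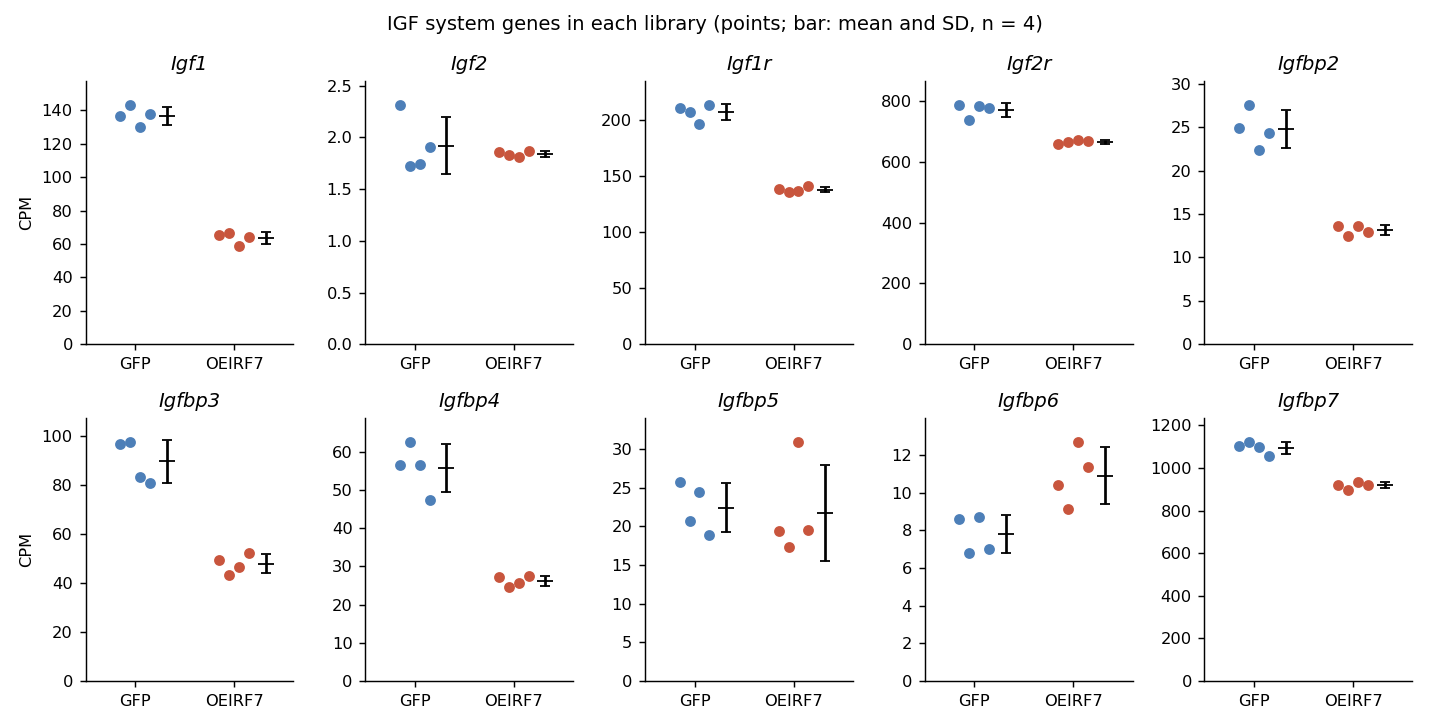
Each panel plots one gene, with CPM on a linear axis from 0, 1 point per library in replicate order, and the mean with its SD beside the points (n = 4 per group). The groups separate in every gene except Igf2 and Igfbp5, and the highest Igfbp5 point is OEIRF7 replicate 3 at 30.9 CPM.

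Igf1, the main growth-promoting ligand of the system, was read at 136, 143, 129.8 and 138 CPM in the 4 GFP libraries. In the OEIRF7 libraries it was at 65.4, 66.6, 58.7 and 64.3 CPM. The groups lay far apart, with the fitted OEIRF7 level at 46.6% of the GFP level. The means were 137 ± 5.52 and 63.7 ± 3.50 CPM (SD, n = 4 each), which is 2.15-fold lower. The log2 fold change was -1.10 (SE 0.045, edgeR's adjusted p = 7.7e-11), and the exact two-sided permutation test gave p = 0.029, the smallest that 4 against 4 allows. Igf1 lies on chromosome 10 from 87858265 to 87937042 on the plus strand of GRCm38.

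Igf2, the fetal ligand that is silenced in most adult tissues, was scarce. Its counts were 62, 43, 43 and 50 in the GFP libraries and 48, 53, 46 and 46 in the OEIRF7 libraries, or 1.72 to 2.31 and 1.81 to 1.86 CPM. The groups overlapped. The log2 fold change was -0.07 with a 95% interval from -0.43 to 0.30 (edgeR's adjusted p = 0.77), so a change of up to about that size in either direction was not detectable at this depth. Igf2 is on chromosome 7 from 142650766 to 142666816, minus strand. Gm49394, which overlaps it on the same strand, had no count in any library.

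Among the receptors, Igf1r, the kinase through which both ligands signal, was at 211, 207, 197 and 213 CPM in the GFP libraries. It was at 138, 136, 137 and 141 CPM in the OEIRF7 libraries, again with a wide gap between the groups. The log2 fold change was -0.59 (SE 0.034, edgeR's adjusted p = 2.6e-09), from 207 ± 7.32 to 138 ± 2.10 CPM (n = 4). Igf1r spans chromosome 7 from 67952827 to 68233668 on the plus strand.

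Igf2r, the receptor that removes IGF2, was at 788, 738, 785 and 778 CPM in the GFP libraries and at 659, 664, 673 and 671 CPM in the OEIRF7 libraries. The groups did not overlap, but the change was the smallest among the 8 called members, a log2 fold change of -0.21 (SE 0.029, edgeR's adjusted p = 1.8e-05). Igf2r is on chromosome 17 from 12682406 to 12769664, minus strand, and the antisense transcript Airn that crosses it was not analysed here. The ratio of Igf2r to Igf1r in FPKM was 4.58 to 5.13 in the GFP libraries and 6.12 to 6.30 in the OEIRF7 libraries, with no overlap.

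The binding proteins split by gene. Igfbp2, Igfbp3 and Igfbp4 were called lower by about the same size, Igfbp7 was called lower by a small step, Igfbp5 was not called, and Igfbp6 was called higher. Igfbp2 and Igfbp5 are neighbours on chromosome 1, in opposite orientation with their 3′ ends 5457 bases apart (Igfbp2 from 72824503 to 72852474, plus strand, and Igfbp5 from 72857932 to 72874884, minus strand). Of these neighbours, Igfbp2 was called and Igfbp5 was not. Igfbp3 lies on chromosome 11 from 7206086 to 7213923 on the minus strand, 3539 bases from Igfbp1, whose product is a liver-type binding protein and which had 0 to 4 counts per library and was not tested.

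To show what precedes these genes, the 100 bases before the RefSeq start (GRCm38.p6) are given for the 3 binding proteins that fell together and for Igfbp6, which rose. Letters are 5′ to 3′ on the strand of the gene, and capitals mark a match on either strand to TATAAA, to the GC box GGGCGG, to the AP-1 motif TGACTCA or to GAAANNGAAA, the core of sites bound by interferon regulatory factors.
Igfbp2, chr1:72824380-72824479 plus strand: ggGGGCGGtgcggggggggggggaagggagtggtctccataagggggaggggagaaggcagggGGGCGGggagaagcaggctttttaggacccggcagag
Igfbp3, chr11:7213924-7214023 minus strand: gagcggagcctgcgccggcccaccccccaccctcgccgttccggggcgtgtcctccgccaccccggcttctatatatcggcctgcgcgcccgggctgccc
Igfbp4, chr11:99041144-99041243 plus strand: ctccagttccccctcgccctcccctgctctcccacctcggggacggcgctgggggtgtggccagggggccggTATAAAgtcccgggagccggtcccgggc
Igfbp6, chr15:102144086-102144185 plus strand: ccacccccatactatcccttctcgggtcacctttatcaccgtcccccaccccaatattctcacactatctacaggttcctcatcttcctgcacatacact
Within these stretches, Igfbp2 held 2 GC boxes, Igfbp4 held a TATA match near its start, and Igfbp3 and Igfbp6 held none of the 4 motifs. RefSeq gave 14 such promoters for the 10 members. Over the full 250 bases before the start, GAAANNGAAA was found in 0 of the 14, against 2.98% of all 32851 promoters. TATAAA was found for Igfbp4 and Igfbp6 (12.4% of all promoters), TGACTCA at an internal start of Igfbp2 (4.46%), and GGGCGG for Igf1r, Igf2, Igf2r, Igfbp2 and Igfbp7 (32.7%). A letter match is not a bound site, and the lack of one says only that these letters are not in the window.

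Igfbp2 was at 24.9, 27.6, 22.3 and 24.3 CPM in the GFP libraries and at 13.65, 12.4, 13.66 and 12.9 CPM in the OEIRF7 libraries. Every OEIRF7 library was well below every GFP library, and the log2 fold change was -0.91 (SE 0.072, edgeR's adjusted p = 5.5e-08).

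Igfbp3, the main IGF carrier of plasma, was at 96.9, 97.8, 83.3 and 80.9 CPM in the GFP libraries and at 49.35, 43.3, 46.7 and 52.3 CPM in the OEIRF7 libraries. It too was separated without overlap, from 89.7 ± 8.86 to 47.9 ± 3.82 CPM (n = 4). The log2 fold change of -0.91 (SE 0.069, edgeR's adjusted p = 4.2e-08) was the same to 2 decimals as that of Igfbp2.

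Igfbp4, an inhibitory binding protein that the protease PAPP-A cuts, was at 56.65, 62.7, 56.5 and 47.4 CPM in the GFP libraries and at 27.2, 24.5, 25.5 and 27.4 CPM in the OEIRF7 libraries. It had the steepest fall of the binding proteins, to 2.13-fold lower (log2 fold change -1.09, SE 0.073, edgeR's adjusted p = 1e-08). Its 95% interval, -1.25 to -0.94, overlapped those of Igfbp2 (-1.07 to -0.76) and Igfbp3 (-1.06 to -0.76). Igfbp4 is on chromosome 11 from 99041244 to 99054392, plus strand.

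Igfbp5, a matrix-bound binding protein, was at 25.75, 20.6, 24.4 and 18.9 CPM in the GFP libraries and at 19.3, 17.3, 30.9 and 19.5 CPM in the OEIRF7 libraries. OEIRF7 replicate 3 was above all 7 other libraries, while OEIRF7 replicate 2 was below every GFP library and replicates 1 and 4 were between the lowest and the next GFP library. The log2 fold change was -0.05 with a 95% interval from -0.37 to 0.28 (edgeR's adjusted p = 0.82, exact permutation p = 0.80). Without OEIRF7 replicate 3 it was -0.26, and Igfbp5 was then called lower (adjusted p = 0.028). That library stood alone as the highest of its group in 159 of 10320 genes above a mean of 5 CPM, against 38 to 86 genes for the other OEIRF7 libraries and 58 to 103 for the GFP libraries.

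Igfbp6, a binding protein that prefers IGF2 over IGF1, was the member that rose. It was at 8.62, 6.81, 8.71 and 7.02 CPM in the GFP libraries and at 10.4, 9.13, 12.7 and 11.4 CPM in the OEIRF7 libraries. The gap between the groups was narrow, from 8.71 to 9.13 CPM, and the log2 fold change was 0.48 (SE 0.115, edgeR's adjusted p = 0.0021). It stayed higher without OEIRF7 replicate 3 and in every other fit that left out 1 library, with log2 fold changes from 0.40 to 0.56 and adjusted p of at most 0.0091. Igfbp6 lies on chromosome 15 from 102144362 to 102149511, plus strand.

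Igfbp7, the most highly expressed member, was at 1104, 1124, 1097 and 1056 CPM in the GFP libraries and at 922, 899, 934 and 920 CPM in the OEIRF7 libraries. The groups were apart by more than the spread within either, although the change was small, with a log2 fold change of -0.25 (SE 0.028, edgeR's adjusted p = 2e-06). Igfbp7 is on chromosome 5 from 77349240 to 77408041, minus strand, and Polr2b overlaps it on the other strand. Polr2b moved the other way, with a log2 fold change of 0.31 (adjusted p = 5.4e-05). Whether reads were counted by strand is not given in the sources used here, so reads in the shared stretch are uncertain.

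**Figure D2:**
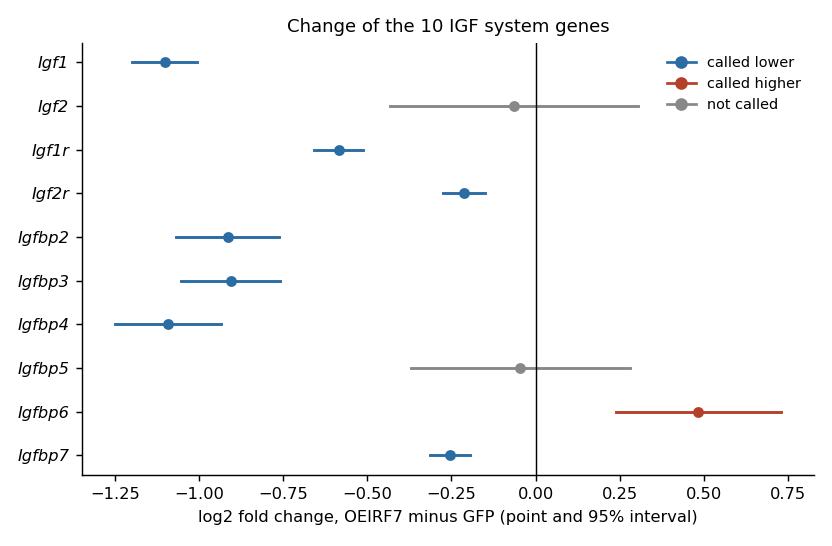
The x axis is the log2 fold change of each member, OEIRF7 minus GFP, with points for the fitted value and bars for its 95% interval (4 libraries per group). Blue genes were called lower, the red gene, Igfbp6, was called higher at 0.48, and the intervals of the grey genes, Igf2 and Igfbp5, include 0.

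Levels were compared between genes on the FPKM scale, since it allows for gene length. In the GFP libraries the order was Igfbp7 (971 ± 26.6 FPKM, SD, n = 4), Igf2r (86.0 ± 2.54), Igf1 (44.2 ± 2.37), Igfbp3 (36.9 ± 3.61), Igfbp4 (22.6 ± 3.20), Igfbp2 (19.3 ± 2.31), Igf1r (18.0 ± 0.607), Igfbp6 (6.94 ± 0.907), Igfbp5 (3.70 ± 0.527) and Igf2 (0.580 ± 0.088). The ranges of Igfbp4, Igfbp2 and Igf1r overlapped, and the other neighbours in this order did not. Igfbp7 was at the 99.7th percentile of the tested genes by FPKM, and Igf2 at the 11.2th.

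In the OEIRF7 libraries Igfbp7 was again highest (830 ± 10.7 FPKM), followed by Igf2r (75.7 ± 0.383), Igf1 (26.3 ± 1.81) and Igfbp3 (20.0 ± 1.59). Igf1r came next (12.2 ± 0.189 FPKM), then Igfbp4 (11.4 ± 1.33), Igfbp2 (10.2 ± 0.454) and Igfbp6 (9.91 ± 1.33). Igfbp4 overlapped each of these 3 neighbours, and Igfbp2 and Igfbp6 overlapped each other. The lowest were again Igfbp5 (3.65 ± 1.02 FPKM) and Igf2 (0.633 ± 0.165).

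Summed over the 6 binding proteins, the level was 1015 to 1096 FPKM in the GFP libraries and 863 to 897 FPKM in the OEIRF7 libraries. Igfbp7 made up 91.1% to 92.1% of this sum in the GFP libraries and 93.4% to 94.4% in the OEIRF7 libraries. Without Igfbp7, the sum was 80.0 to 98.1 FPKM in the GFP libraries and 48.7 to 59.3 FPKM in the OEIRF7 libraries. Within that smaller pool the makeup shifted: Igfbp6 took 6.19% to 8.94% of it in the GFP libraries and 17.1% to 19.3% in the OEIRF7 libraries. Igfbp5 took 3.48% to 4.64% and 5.72% to 8.70%, also without overlap. The share of Igfbp3 was 39.5% to 42.8% in the GFP libraries and 32.7% to 38.15% in the OEIRF7 libraries, and that of Igfbp4 was 23.0% to 27.4% and 19.8% to 21.6%. The share of Igfbp2 overlapped between the groups. A share rises when other members fall, so the higher share of Igfbp5 went with no called change of Igfbp5 itself.

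**Figure D3:**
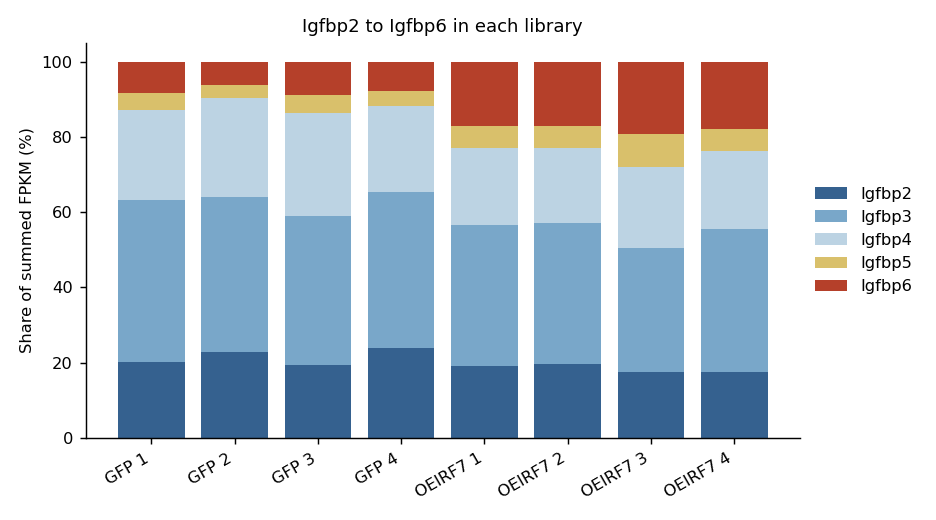
Stacked bars give, for each of the 8 libraries, the percentage of the summed FPKM of Igfbp2 to Igfbp6 that belongs to each gene, from 0 to 100. The red segment, Igfbp6, has a mean of 7.80% in the GFP libraries and 17.9% in the OEIRF7 libraries.

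The ligand fell along with the pool of binding proteins, and the ratio between them depended on the scale. Igf1 per summed Igfbp2 to Igfbp6 was 0.474 to 0.526 in the GFP libraries and 0.404 to 0.576 in the OEIRF7 libraries on the FPKM scale, which overlapped. On the CPM scale the same ratio was 0.641 to 0.772 and 0.453 to 0.624, with no overlap. The deposited FPKM and the counts differ in how much Igf1 fell. The log2 ratio of the mean FPKM was -0.75 and the fitted log2 fold change of the counts was -1.10. Relative to the median over tested genes above 1 FPKM in the same library, the counts behind 1 FPKM of Igf1 were 1.08, 1.13, 1.124 and 1.19 in the GFP libraries and 0.898, 0.8885, 0.910 and 0.926 in the OEIRF7 libraries, so 1 FPKM of Igf1 stood for fewer counts in the OEIRF7 group (log2 difference -0.32, exact permutation p = 0.029). A difference that large was seen in 0.564% of genes, and in no other member that could be compared, where it was 0.07 or less in size. The same exact permutation p of 0.029 was given by each of those members except Igfbp4 (p = 0.54), at differences of only 0.006 to 0.046. Thus the size of the difference set Igf1 apart from them, and the p did not. This quantity was examined after the values of Igf1 had been seen.

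Beyond the members, the proteases that cut IGF-binding proteins and the inhibitors of those proteases included genes called in both directions. Of 16 genes listed as such, all tested, 7 were called lower (43.8%, against 29.9% of all tested genes). Another 7 were called higher (43.8%, against 29%) and 2 were not called, with a median log2 fold change of 0.09. Whether the product of each listed gene acts on these binding proteins was not examined. Pappa, which encodes the protease PAPP-A that cuts IGFBP4, was at 108, 112, 92.6 and 104 CPM in the GFP libraries and at 56.25, 58.3, 53.7 and 62.2 CPM in the OEIRF7 libraries. The groups were far apart, and its log2 fold change was -0.85 (SE 0.058, edgeR's adjusted p = 1.3e-08). Its paralog Pappa2, which cuts IGFBP3 and IGFBP5, was far less abundant and went the other way, from 1.54 ± 0.302 to 3.58 ± 0.534 CPM (n = 4, log2 fold change 1.22, edgeR's adjusted p = 4e-05).

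The stanniocalcins, secreted inhibitors of these 2 proteases, also went in opposite directions. Stc2 was at 62.7, 57.3, 64.0 and 53.0 CPM in the GFP libraries and at 26.4, 22.8, 35.1 and 26.8 CPM in the OEIRF7 libraries, and its log2 fold change was -1.10 (SE 0.101, edgeR's adjusted p = 3e-07). Stc1 was at 1.75, 1.84, 2.11 and 1.03 CPM in the GFP libraries and at 4.26, 3.69, 10.8 and 3.49 CPM in the OEIRF7 libraries. All OEIRF7 libraries were above all GFP libraries, and OEIRF7 replicate 3 was well above the other OEIRF7 libraries. The log2 fold change of Stc1 was 1.72 (SE 0.351, edgeR's adjusted p = 0.00068), and without OEIRF7 replicate 3 it was 1.18. Stc1 had only 27 to 52 counts per GFP library.

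Of the other proteases on the list, Mmp9, a gelatinase, had 2 to 10 counts per GFP library and 205 to 367 counts per OEIRF7 library (log2 fold change 5.88, edgeR's adjusted p = 2.4e-10), so the size of its rise rests on few GFP reads. Htra3, a serine protease of the matrix, rose from 8.07 ± 0.481 to 31.6 ± 2.28 CPM (n = 4, log2 fold change 1.97, edgeR's adjusted p = 2.8e-11). Mmp3, the matrix protease stromelysin, rose from 249 ± 7.32 to 512 ± 37.9 CPM (log2 fold change 1.04, edgeR's adjusted p = 1.6e-10). Adam12 (0.85) and Plau (0.96) were the other genes called higher, and Prss23 (-0.98), Adamts1 (-0.97), Htra1 (-0.39), Adam9 (-0.14) and Mmp2 (-0.10) the others called lower. Ctsd (0.04) and Plat (0.13) were not called.

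**Figure D4:**
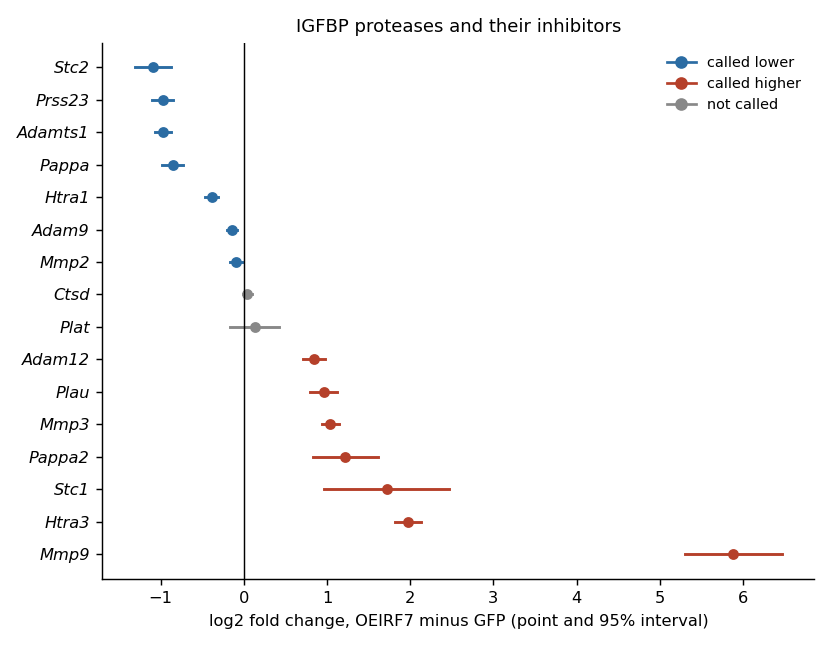
The x axis is the log2 fold change, OEIRF7 minus GFP, of 16 genes listed as proteases of IGF-binding proteins or their inhibitors, with 95% intervals (4 libraries per group). Stc2 and Pappa are among the 7 called lower, Stc1 and Pappa2 among the 7 called higher, and Mmp9 lies far to the right at 5.88.

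Downstream of the receptors, 49 of 52 genes of insulin and IGF receptor signalling were tested, of which 19 were called lower (38.8%, against 29.9% of all tested genes), 9 higher (18.4%, against 29%) and 21 not, with a median log2 fold change of -0.06. Insr, the insulin receptor, which can also pair with IGF1R, was at 64.0, 66.6, 62.3 and 68.1 CPM in the GFP libraries and at 39.7, 38.6, 36.9 and 41.9 CPM in the OEIRF7 libraries. Its log2 fold change of -0.73 (SE 0.047, edgeR's adjusted p = 6.6e-09) lay beside that of Igf1r (-0.59). Irs1, an adaptor protein that both receptors phosphorylate, was at 90.2, 92.2, 97.3 and 99.35 CPM in the GFP libraries and at 45.7, 50.9, 47.8 and 52.3 CPM in the OEIRF7 libraries. It was 1.93-fold lower (log2 fold change -0.95, SE 0.049, edgeR's adjusted p = 6.3e-10).

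The second adaptor, Irs2, was not called lower. Its log2 fold change was 0.12 (edgeR's adjusted p = 0.073), and it was called higher without GFP replicate 1 (0.15, adjusted p = 0.032). The kinases Akt1 and Akt2, through which IGF1R signals to metabolism and survival, had log2 fold changes of -0.0006 (95% interval -0.07 to 0.07) and 0.04 (-0.04 to 0.12). Grb10, an imprinted gene for an adaptor that restrains both receptors, was called lower (-0.39, adjusted p = 2.2e-05). Socs3, an inhibitor of cytokine and insulin signalling, was the gene of this list called past 1 on the log2 scale, and it rose from 9.40 ± 0.928 to 19.3 ± 1.15 CPM (n = 4, log2 fold change 1.03, edgeR's adjusted p = 4.6e-08). Pik3cb (-0.69), a catalytic subunit of the kinase PI3K, Gsk3b (-0.57), a kinase that AKT inhibits, and Inppl1 (0.61), a lipid phosphatase, were named after their values were seen and were all called.

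FOXO transcription factors are held out of the nucleus by AKT. Foxo1 was not called (0.05, edgeR's adjusted p = 0.58). Foxo3 was called lower by a small step (-0.13, adjusted p = 0.024), but not without GFP replicate 3 or 4 or OEIRF7 replicate 1 or 2, when its adjusted p was 0.051 to 0.081. Foxo4, named after its value was seen, was called higher without overlap between the groups (0.31, adjusted p = 0.00095). Of 18 genes known to respond to FOXO factors, all tested, 5 were called lower (27.8%, against 29.9% of all tested genes), 6 higher (33.3%, against 29%) and 7 not, so both shares were near those of all genes. Gadd45a, a growth-arrest gene that also responds to DNA damage, was the gene of this list past 1 on the log2 scale (log2 fold change 1.33, edgeR's adjusted p = 7.8e-10). Insr and Irs2 are also on this list.

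Of 15 genes of the Igf2 locus and other imprinted loci, 10 were tested. Of these, 4 were called lower (40%, against 29.9% of all tested genes) and 1 higher (10%, against 29%). H19, the neighbour of Igf2, was not analysed here. The gene called higher was Cdkn1c, an inhibitor of cyclin-dependent kinases (0.66). Of 11 other IGF-related genes, 4 were tested, of which 1 was called higher (25%, against 29% of all tested genes) and 0 lower. Igf2bp1, which encodes an RNA-binding protein that binds Igf2 mRNA and not the IGF peptides, was the gene called, and it was higher (0.47, edgeR's adjusted p = 0.0039). Ins1, Ins2 and Insl3 had 0 counts in every library.

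The members' changes stood beside changes in markers of cell type and cell state. Of 10 fibroblast markers, 5 were called lower (50%, against 29.9% of all tested genes) and 2 higher (20%, against 29%). Tcf21, a transcription factor of resident fibroblasts, had a log2 fold change of -1.33. The summed level of the fibroblast markers was 13560 to 14010 CPM in the GFP libraries and 12610 to 13610 CPM in the OEIRF7 libraries. Of 8 myofibroblast markers, 7 were called lower (87.5%) and 1 higher (12.5%). Their sum was 24640 to 26150 CPM in the GFP libraries and 20480 to 22530 CPM in the OEIRF7 libraries. Acta2, the smooth muscle actin of myofibroblasts, fell by 1.83 on the log2 scale, Cnn1 by 1.30 and Cthrc1 by 1.15. Pdgfra (0.25) and Vim (0.22) were the fibroblast markers called higher, and Lox (0.11) the myofibroblast marker called higher. The sums rest largely on matrix genes. Fn1, with a mean of 13270 CPM in the GFP libraries, was the largest part of the myofibroblast sum, and Col1a1 (4561 CPM) of the fibroblast sum. RNA of both sets of markers was present in both groups, although Cnn1 was low, with means of 4.22 CPM in the GFP and 1.72 CPM in the OEIRF7 libraries.

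Macrophages are also a known source of IGF1, and their markers were present. Of 7, 4 were called higher (57.1%, against 29% of all tested genes) and 0 lower (against 29.9%). Their summed levels were 272 to 324 CPM in the GFP libraries and 334 to 374 CPM in the OEIRF7 libraries. Mrc1, the macrophage mannose receptor, rose by 1.05 on the log2 scale, while Csf1r (0.06), the receptor that macrophages need to survive, was not called. Lyz2, which was called higher, made up most of the macrophage sum, with means of 202 CPM in the GFP and 235 CPM in the OEIRF7 libraries. Ptprc and C1qa were not called. Any relation of the macrophage sum to the level of Igf1 was not tested. Endothelial markers (6 tested) had 1 called lower (16.7%) and 3 higher (50%), with sums of 202.5 to 216 and 206 to 231 CPM. The number called lower was 0 by library size, in both limma fits and without GFP replicate 1, 3 or 4 or OEIRF7 replicate 1 or 3. Mural cell markers (5 of 6 tested) had 2 called lower (40%) and 2 higher (40%), with sums of 121 to 133 and 105 to 127 CPM. Notch3 fell by 1.61 on the log2 scale, and Cspg4 rose 2.83-fold.

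Epicardial and mesothelial markers (6 tested) had 2 called lower (33.3%, against 29.9% of all tested genes) and 2 higher (33.3%, against 29%). Both shares were near those of all genes. The sums were 151 to 159 CPM in the GFP libraries and 105 to 119 CPM in the OEIRF7 libraries. The number called higher was 1 in each of the 8 fits that left out 1 library, with DESeq2, with a filter of at least 1 count in total and with the replicate block. Upk3b fell by 1.32 and Krt19 rose by 1.96 on the log2 scale. Of the 6 cardiomyocyte markers, 2 were tested, of which 1 was called lower (50%, against 29.9% of all tested genes). The gene called lower was Tnnt2, with means of 11.3 CPM in the GFP and 7.78 CPM in the OEIRF7 libraries. Its log2 fold change was -0.54 (edgeR's adjusted p = 0.00057). Ttn was not called, with means of 0.547 and 0.857 CPM. Among the untested genes, Myh6 (0 or 1 count per library), Actn2 (0 to 3) and Nppa (0 to 2) were near 0, and Tnni3 had 1 to 9 counts. The part that these shifts in markers had in the changes of the IGF system was not tested.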

How the data were processed

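RNA-seq of 8 libraries of TGF-β-treated primary mouse cardiac fibroblasts, 4 labelled GFP and 4 labelled OEIRF7, was used. According to the study's methods, reads were trimmed with Trimmomatic and mapped to GRCm38 with HISAT2. The authors deposited raw read counts per gene from HTSeq-count, and FPKM from Cufflinks, which are scaled for gene length and depth. Tool versions and the strand setting are not given in the sources used here. The labels and the study's methods name different kits. Columns that hold group means, fold changes, p-values and FDR of the authors' own comparison were not used. The letters GFP stood inside 121 gene symbols, which were restored by gene identifier.

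The counts were tested with edgeR 4.0.16 in R 4.3.3: filterByExpr by group (13533 of 22274 genes), TMM scaling (factors 0.989 to 1.01), glmQLFit and glmQLFTest without covariates, and Benjamini-Hochberg adjustment over all tested genes at 0.05. CPM are scaled by TMM. Log2 CPM for the exact two-sided permutation test used a prior count of 2. Totals were 24454801 to 28658826 counts, and the common biological coefficient of variation was 5.62%. FPKM served for levels between genes. Coordinates came from GENCODE M21 and promoters from the RefSeq table (GRCm38.p6).

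Named genes were all members, Irf7 and Phrf1, fixed partners of the pathway, and at most 6 genes per list called past 1 on the log2 scale, with those marked as named later. Some genes of the signalling list are not reported here by name. The members and the 12 other lists were chosen with earlier results of these data known. Alternatives were DESeq2 1.42.0, library size or upper-quartile scaling, filters of at least 1 count in total or 10 in every library, a replicate block, limma 3.58.1 on log2(FPKM + 1) or log2(FPKM + 0.1) over genes above a mean of 0.1 FPKM, and leaving out each library.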

Additional observations from a re-analysis of the deposited data

Results flagged for a closer look

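Single libraries that stood apart from the other 3 of their group were looked for by dividing the gap to the nearest library by the range of the group (Dixon's ratio, with its 95% critical value for 4 libraries). Over 78 groups of libraries examined, 3 passed it, where chance flags about 1 in 20 groups. All 3 concern OEIRF7 replicate 3. Igfbp5 was highest there (ratio 0.842), at 30.9 CPM against 17.3 to 19.5 CPM in the other OEIRF7 libraries. Stc1, the inhibitor of pappalysins, was highest there too (0.893), at 10.8 CPM against 3.49 to 4.26 CPM. Mrc1, the macrophage mannose receptor, was lowest there (0.843), at 9.42 CPM against 12.1 to 12.55 CPM.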

How the results depend on the processing

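The number of members called, 7 lower and 1 higher, and all 8 single calls kept their direction and their side of the threshold under every alternative, as did the counts over all genes within 1.5 times. The exception was Igfbp5, called lower without OEIRF7 replicate 3 (-0.263, adjusted p = 0.028), which made 8 lower. The uncalled changes close to 0 changed sign. That of Igf2 was 0.043 and 0.089 with limma on log2(FPKM + 1) and log2(FPKM + 0.1), and went from -0.115 to 0.036 when 1 library was left out. That of Igfbp5 went from -0.263 to 0.053, and that of Foxo1 from -0.022 to 0.096. Akt1 was at 0.002 with DESeq2, 0.027 by library size, 0 by upper-quartile scaling, 0.005 with at least 10 counts in every library and 0.016 in both limma fits, and from -0.021 to 0.013 with 1 library left out. Endothelial genes called lower were 0 by library size and in both limma fits, and 0 to 1 with 1 library left out. Other IGF-related genes called higher were 2 with at least 1 count in total, and imprinted genes called higher were 2 there and in both limma fits. Macrophage markers called higher were 2 in limma on log2(FPKM + 0.1). Epicardial markers called higher were 1 with DESeq2, with at least 1 count in total and in all fits that left out 1 library. The cause was not tested.

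The replicate numbers were not taken as pairs. Same-numbered libraries deviated together with correlations of 0.079, 0.095, 0.138 and 0.104 across genes, all small and all positive. The labels name no shared culture or day, so whether same-numbered libraries share a source is not known. In Akr1b3, Slc6a12, Hspa1b and Ptgs2, given below and picked after values were seen, replicate 3 was high and replicate 2 low in both groups. With the replicate block, 4154 genes were called lower and 4057 higher, against 4045 and 3924 without it, members stayed at 7 and 1, and epicardial markers called higher became 1.

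Depth limits Igf2, Pappa2 and the GFP levels of Stc1 and Mmp9, which rest on few reads. With 4 libraries a group, the exact test cannot give a p below 0.029.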

Other observations

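Igfbp5 and Igfbp6 varied within the groups, and their deviations are given beside those of 4 stress-responsive genes, which were named after the values were seen. On log2 CPM, Igfbp5 deviated from its group mean by 0.21, -0.11, 0.13 and -0.24 in GFP replicates 1 to 4 and by -0.13, -0.29, 0.54 and -0.12 in OEIRF7 replicates 1 to 4. Igfbp6 deviated by 0.15, -0.18, 0.17 and -0.14 and by -0.06, -0.24, 0.23 and 0.07. Akr1b3, the aldose reductase that makes the osmolyte sorbitol, deviated by 0.06, -0.24, 0.33 and -0.15 and by -0.09, -0.43, 0.86 and -0.35. Slc6a12, a betaine transporter known to respond to salt, deviated by 0.18, -0.67, 0.77 and -0.29 and by -0.12, -0.39, 0.86 and -0.36. Hspa1b, an inducible heat shock protein, deviated by 0.12, -0.35, 0.42 and -0.18 and by -0.04, -0.42, 0.72 and -0.25. Ptgs2, the inducible cyclooxygenase, deviated by -0.05, -0.47, 0.35 and 0.16 and by -0.24, -0.31, 0.82 and -0.27, and so went against Igfbp5 in GFP replicates 1 and 4. In both groups, replicate 3 was high and replicate 2 low for each of these genes, apart from Igfbp5 in the GFP group, where replicate 1 was highest and replicate 4 lowest. Igf1 had its lowest value in replicate 3 of both groups (-0.07 and -0.12). The relation was not tested.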
